A study of Homo sapiens with 4 samples.

Results

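The design regions examined here are those of a promoter-tiling array that lie in 5 spans of chromosome 11 known for olfactory receptor genes. The rule that takes them in uses only the probe coordinates in the deposited files, and the spans were proposed with earlier results of these data known. On the NCBI36 (hg18) scale of the selection rule, cluster 1 runs from 4340000 to 6180000, without the globin span from 5190000 to 5270000. Cluster 2 runs from 48190000 to 51300000, cluster 3 from 54800000 to 56350000, cluster 4 from 57550000 to 59050000 and cluster 5 from 123100000 to 123950000. Regions with at least 5 probes numbered 65, 10, 45, 27 and 24 in clusters 1 to 5, which makes 171 of the 18008 such regions on the array, and 1 further region in the spans had too few probes. Of the 171, 169 were 2700 bp long, and the median region held 22 probes. The files name regions by position and give no gene, so whether a given region belongs to an olfactory receptor gene or to another gene of the same span was not analysed here.

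Each of 4 two-colour arrays compared 2 precipitates of HEK293/RPF-1 cells, a stable transfectant of the human embryonic kidney line HEK293 that makes HA-tagged RPF-1 when tetracycline is withdrawn. Cells were kept for 48 h in medium without tetracycline (Tet-, induced, Cy5) or with it (Tet+, uninduced, Cy3), fixed in 1% formaldehyde and precipitated with an anti-HA antibody, so the transgene was present on both sides of each ratio. The labels do not say whether the line is a single clone, and they give Cy5 to the Tet- side in all 4 arrays. Array series N39 (arrays 1 and 2) and N44 (arrays 3 and 4) are read from the array names in the files. Those names carry Tet and a minus sign in N39 and a plus sign of unstated meaning in N44. Directions here follow the labels. Whether the 4 preparations were independent cultures is not stated, and the spread behind every p-value may therefore be technical.

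Olfactory receptor genes encode G protein-coupled receptors that bind odorants. They form a very large gene family, lie in tandem clusters interspersed with pseudogenes, and are expressed mainly in the olfactory epithelium, where a mature sensory neuron expresses a single receptor allele. The labels describe RPF-1 as a transcription factor. The motifs searched here are 2 general A+T-rich elements: the octamer ATGCAAAT, the classical element of POU-domain factors, and TAATTA, which contains the TAAT core of most homeodomain sites.

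Promoters of this family are described here by base composition and by the 2 motifs. The relation of this composition to the probe lengths described with the array results was not tested. RefSeq lists 171 protein-coding olfactory receptor genes on chromosome 11, a number that equals that of the regions although the sets were chosen differently and were not matched. A promoter window of 300 bases, 250 before and 50 after the annotated start, was at hand for 135 of them. The median A+T content of these windows was 63.0%, against 41.7% over all 27305 RefSeq windows. TAATTA, which reads the same on both strands, was in 33 of the 135 windows (24.4%) and in 4.98% of all windows. ATGCAAAT, searched on both strands, was in 5 of the 135 (3.7%) and in 1.8% of all windows. Matches of the 2 motifs can share at most 1 letter, and 4 of the 135 windows held both. These 4 are shown in their order along the chromosome, 5′ to 3′ in the sense of the gene, with both motifs in capitals. In 64 of the 135 windows the annotated start was directly an ATG, so such a window may begin at the coding start and not at a start of transcription.

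OR52B4: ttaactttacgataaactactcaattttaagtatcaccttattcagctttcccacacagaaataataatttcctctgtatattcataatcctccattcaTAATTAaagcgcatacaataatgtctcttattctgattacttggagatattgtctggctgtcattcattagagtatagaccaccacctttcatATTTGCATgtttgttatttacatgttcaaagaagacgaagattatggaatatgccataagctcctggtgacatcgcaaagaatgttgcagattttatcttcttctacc
OR4C3: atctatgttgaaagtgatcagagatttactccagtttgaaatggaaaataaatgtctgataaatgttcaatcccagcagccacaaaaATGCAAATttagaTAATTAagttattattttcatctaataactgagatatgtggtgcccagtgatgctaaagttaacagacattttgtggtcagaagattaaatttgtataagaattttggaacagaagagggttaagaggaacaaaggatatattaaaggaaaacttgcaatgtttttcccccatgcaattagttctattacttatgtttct
OR10AG1: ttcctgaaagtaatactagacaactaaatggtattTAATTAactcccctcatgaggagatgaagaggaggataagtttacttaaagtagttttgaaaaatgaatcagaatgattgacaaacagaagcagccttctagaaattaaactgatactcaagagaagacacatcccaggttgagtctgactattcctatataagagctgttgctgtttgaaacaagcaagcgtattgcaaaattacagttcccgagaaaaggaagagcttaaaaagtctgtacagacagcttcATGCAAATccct
OR8A1: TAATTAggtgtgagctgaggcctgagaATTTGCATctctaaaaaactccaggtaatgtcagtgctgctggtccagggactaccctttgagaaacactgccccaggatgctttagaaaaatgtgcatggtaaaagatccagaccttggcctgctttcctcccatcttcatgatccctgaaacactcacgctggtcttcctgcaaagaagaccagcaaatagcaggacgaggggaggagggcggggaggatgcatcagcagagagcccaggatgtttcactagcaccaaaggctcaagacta

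In RefSeq on GRCh38.p14 these windows lie at chr11:4368337-4368636 (minus strand), chr11:48324670-48324969 (plus), chr11:55969896-55970195 (minus) and chr11:124569747-124570046 (plus). That assembly differs from the scale of the array coordinates, so no window was tied to a measured region. A motif match is a description of letters, not a bound site.

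In array 1 every cluster lay below 0, and in array 3 every cluster lay well above it, so no cluster had the same direction in all 4 arrays. Values are means over a cluster's regions of the log2 ratio of induced over uninduced signal, after centring each array on the median of its probes. Cluster 1 gave -0.208, 0.092, 0.377 and 0.128 in arrays 1 to 4, with a mean of 0.098 ± 0.240 (SD, n = 4). Cluster 2 gave -0.087, 0.280, 0.678 and 0.347, with a mean of 0.304 ± 0.314. Cluster 3 gave -0.356, -0.098, 0.469 and -0.004, with a mean of 0.003 ± 0.345. The clusters thus moved up and down together from array to array. Cluster 4 gave -0.129, 0.182, 0.358 and 0.080, with a mean of 0.123 ± 0.203. Cluster 5 gave -0.341, -0.075, 0.186 and -0.005, with a mean of -0.059 ± 0.218. The 981 other regions of chromosome 11 gave 0.045, 0.070, 0.044 and 0.035, a spread between arrays of 0.015. An exact two-sided sign-flip test of each cluster mean over the 4 arrays gave p between 0.25 and 1.0, and the smallest p that 4 arrays allow is 0.125.

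**Figure D1:**
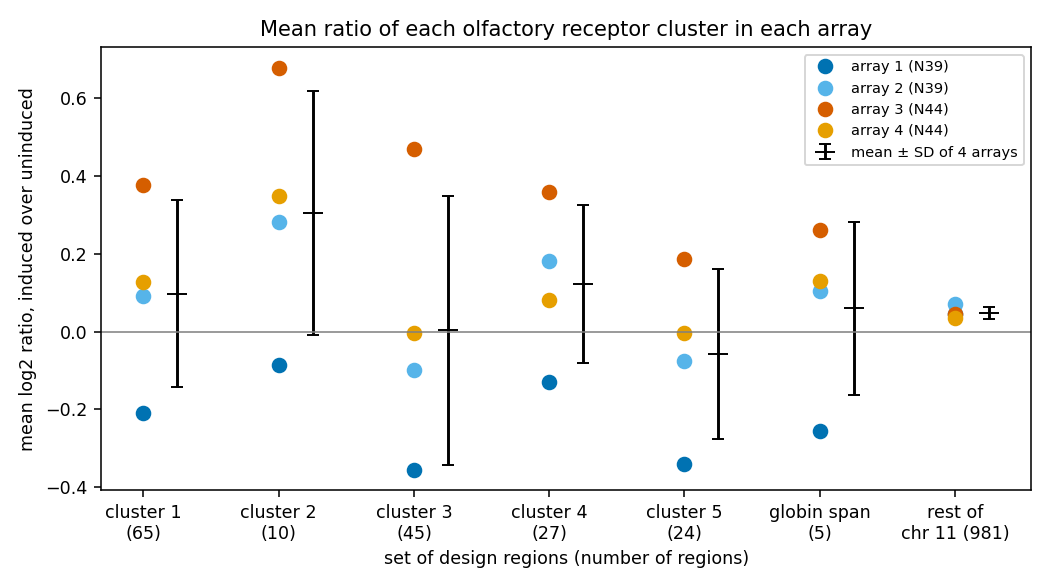
Mean log2 ratio (vertical axis) of the design regions of each cluster, of the globin span and of the rest of chromosome 11 in each array (coloured points), with the mean ± SD of the 4 arrays in black. Array 1 is the lowest and array 3 the highest point of every cluster, while the rest of chromosome 11 stays between 0.035 and 0.070.

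Against the rest of chromosome 11 on the same array, the difference of cluster 1 was 0.049 ± 0.241, of cluster 2 0.256 ± 0.316, of cluster 3 -0.046 ± 0.348, of cluster 4 0.074 ± 0.201 and of cluster 5 -0.107 ± 0.220 (SD, n = 4). In each cluster 3 of the 4 arrays shared a direction. None of the 5 differences exceeded the spread between arrays (exact sign-flip test, adjusted p = 0.75 for each over the 5 clusters).

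The order of the clusters within an array was steadier than their level. Cluster 2 was the highest of the 5 in all 4 arrays, partly through 1 of its 10 regions, at 48282150 to 48284850. It exceeded cluster 5 by 0.253, 0.354, 0.492 and 0.352 in arrays 1 to 4 (0.363 ± 0.098) and cluster 3 by 0.269, 0.378, 0.209 and 0.351 (0.302 ± 0.077). It exceeded cluster 1 by 0.120 to 0.300 and cluster 4 by 0.042 to 0.320. Cluster 5 was also below cluster 1 in all 4 arrays, with a cluster 1 minus cluster 5 difference of 0.157 ± 0.028, and below cluster 4, at 0.181 ± 0.073. These 6 of the 10 pairs kept a direction in every array, each at the smallest attainable exact sign-flip p of 0.125 (0.208 after adjustment over 10 pairs). The other 4 pairs changed sign between arrays. Cluster 1 and cluster 4 differed by -0.025 ± 0.069 and cluster 3 and cluster 5 by 0.062 ± 0.148. Single-match probes are those with a count field of 1. The sources used here do not define that field, which is read as the number of genomic matches. With single-match probes, or after correction for mean probe length, the same 6 pairs again kept a direction in every array. So did cluster 1 minus cluster 3 with single-match probes (0.171 ± 0.110) and cluster 3 minus cluster 5 after the length correction (0.090 ± 0.071). With single-match probes 20 of 168 member regions were called higher and 16 lower (limma), against 11.2 and 14.4% of all regions. Cluster 2 holds only 10 regions and 38.0% of its probes match several places, against 4.9% in cluster 1 and 12.6, 10.8 and 11.9% in clusters 3, 4 and 5. Without its highest region, a setting chosen after seeing the data, cluster 2 gave -0.168, 0.244, 0.486 and 0.241 over 9 regions (0.201 ± 0.271) and was below cluster 4 in array 1. Cluster 2 minus cluster 4 was then -0.039, 0.062, 0.128 and 0.162 (0.078 ± 0.088, exact sign-flip p = 0.25). Cluster 2 stayed above clusters 1, 3 and 5 in all 4 arrays, by 0.103, 0.198 and 0.260 on average. With single-match probes and without that region, only cluster 5 was below it in all 4 arrays (0.236 ± 0.053).

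Over all regions of the array, ratios in arrays 1 and 3 varied with probe length, and clusters of like probe length differed in level. Clusters 2, 4 and 5 had mean probe lengths of 54.6, 54.6 and 54.4 bases and means of 0.304, 0.123 and -0.059. Array designs of this kind lengthen probes in A+T-rich sequence, and member probes averaged 55 bases against 51.8 in the rest of chromosome 11. Over all regions of the array with a mean length near 50 bases, the median log2 ratio was 0.019, 0.031, -0.110 and -0.051 in arrays 1 to 4. In the class near 56 bases, which held 44 of the members, it was -0.252, -0.078, 0.311 and -0.013. Thus array 1 fell and array 3 rose with probe length over all regions, in the direction of the clusters' level in those arrays. Among the 171 members themselves the correlation of ratio with mean probe length was -0.539, -0.424, 0.027 and -0.283 in arrays 1 to 4, against -0.241, -0.104, 0.435 and 0.061 over all regions, so the rise in array 3 was not seen within the members. After subtraction of the median of the length class in each array, the SD between arrays of the mean over all members went from 0.260 to 0.113, and the mean from 0.067 to 0.057. Array 1 was still the lowest over all members, at -0.103, and array 3 the highest, at 0.164. Cluster 2 then gave 0.025, 0.310, 0.480 and 0.340, above 0 in all 4 arrays, and its differences from the rest of chromosome 11 were above 0 in 3 of them, at -0.029, 0.240, 0.436 and 0.285 (0.233 ± 0.194). Without its highest region it was at -0.042 in array 1. Cluster 5 gave -0.242, -0.059, -0.006 and -0.016, below 0 in all 4. Its differences from the rest of chromosome 11 were also below 0 in all 4, at -0.296, -0.129, -0.049 and -0.071. Their mean was -0.136 ± 0.112, at the smallest attainable exact sign-flip p of 0.125. In each of clusters 1 to 4 only 3 arrays shared a direction against the rest. On this scale 33 of 171 member regions were called higher and 21 lower (limma), against 18.3 and 16.6% of all regions. This subtraction was chosen after the values were seen, and the part of probe length or of base composition in the shift was not tested.

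**Figure D2:**
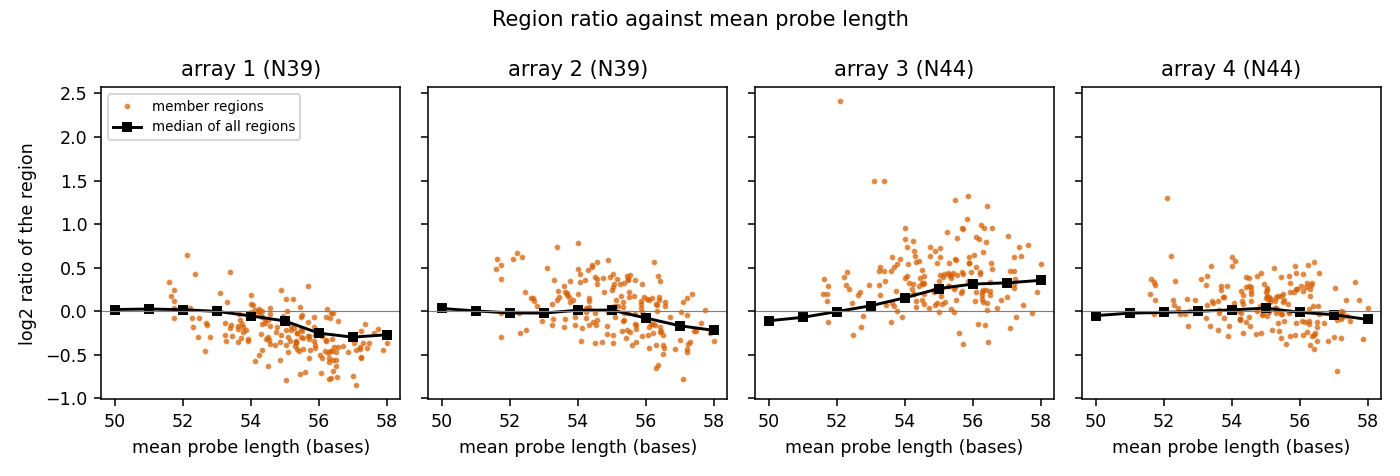
Log2 ratio of each member region (orange points) against its mean probe length in bases, in each array, with the median of all regions of the array per length class (black). The black line falls in array 1 and rises in array 3, and the members lie around it at lengths of 51.6 to 58 bases.

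The members' mean was also higher over arrays 3 and 4 than over arrays 1 and 2, the 2 arrays of each series. The mean of arrays 3 and 4 was above that of arrays 1 and 2 in 160 of 171 members (93.6%), against 48.3% of all regions. In clusters 2, 3 and 5 this held for every region. The difference lay mainly between array 1 and array 3, at -0.246 and 0.389 over all members, since arrays 2 and 4 stood at 0.044 and 0.080. Array 4 was above array 2 in 88 members (51.5%), against 45.5% of all regions, and the mean of cluster 4 was lower in array 4 than in array 2. The median N44 minus N39 difference was 0.331 over the members and -0.008 over all regions. All regions in the class near 56 bases had medians of -0.252, -0.078, 0.311 and -0.013 in arrays 1 to 4. Members share the level of each array, so they are not replicates of a series. Tested across all 18008 regions, no region differed between the series (limma, adjusted p threshold 0.05; percent called 0.00). The smallest adjusted p of a member was 0.46, and 36.8% of the members had an unadjusted p below 0.05 against 8.87% of all regions.

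Of the 171 member regions, 22 were higher (12.9%) and 9 were lower (5.26%) in induced cells, and 140 did not pass the test (limma, adjusted p threshold 0.05 over all regions). Over the whole array 13.7% of regions were called higher and 13.5% lower. With all 4 arrays the share of higher members was therefore near the background and that of lower members below it. Without array 3 the share of lower members was 21.6%, against 14.4% of all regions. The median SD between the 4 arrays was 0.296 over members and 0.145 over all regions. Cluster 1 had 14 higher and 2 lower regions of 65, cluster 2 had 2 and 0 of 10, cluster 3 had 2 and 3 of 45, cluster 4 had 4 and 0 of 27 and cluster 5 had 0 and 4 of 24. The median of the members' mean ratios was 0.070, against -0.003 over all regions. All 4 arrays were above 0 in 21 members (12.3%) and below 0 in 11 (6.4%), against 20.6 and 24.2% of all regions. The counts depend on single arrays: without array 1 they were 46 higher and 5 lower, without array 2 8 and 4, without array 3 17 and 37, and without array 4 9 and 5. With arrays 1 and 2 alone 10 were higher and 36 lower, against 9.82 and 8.86% of all regions, and with arrays 3 and 4 alone 51 and 4, against 10.7 and 7.10%. With 1 array of arrays 1 to 4 left out in turn, 13.1, 6.33, 14.5 and 6.20% of all regions were higher and 11.1, 5.15, 14.4 and 4.44% lower. In cluster 5 the counts were 4 higher and 2 lower both without array 1 and with arrays 3 and 4 alone.

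**Figure D3:**
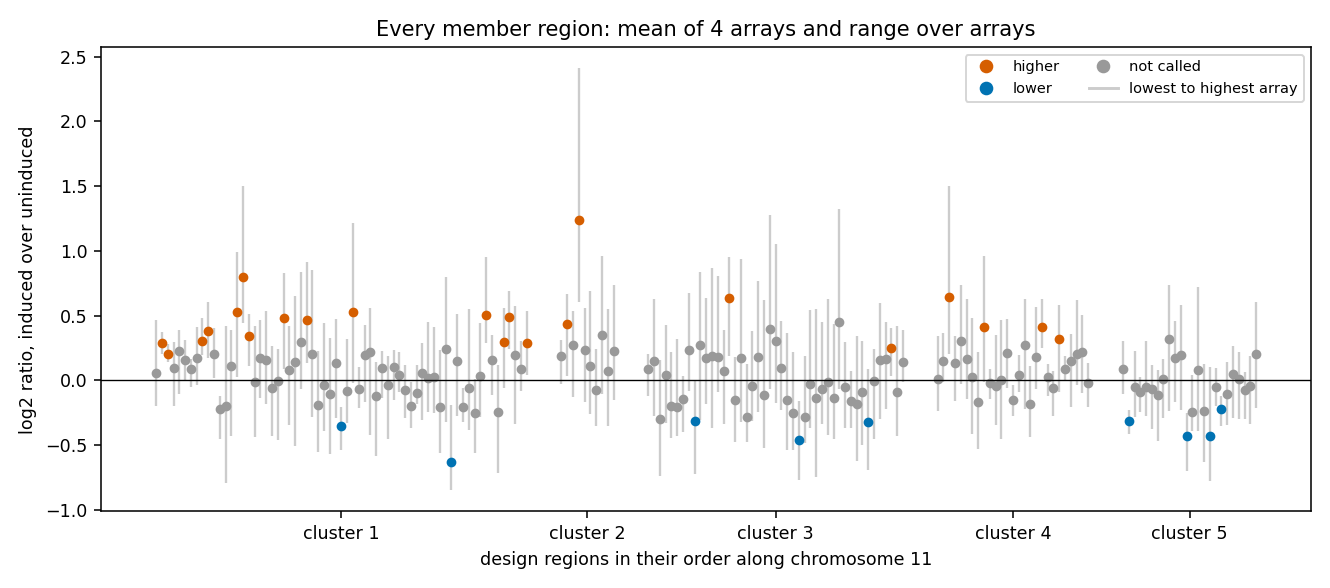
Mean log2 ratio of 4 arrays for each of the 171 member regions (points, coloured by the limma call) in their order along chromosome 11, with a grey line from the lowest to the highest array. With all 4 arrays, higher calls are most numerous in cluster 1 (14 of 65), and cluster 5 has lower calls only (4 of 24). Over the whole array 13.7% of regions were called higher and 13.5% lower.

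In cluster 1, on both sides of the globin span, the highest region was at 4826514 to 4829214. Its log2 ratios were 0.445, 0.735, 1.499 and 0.515, all above 0, with a mean of 0.80 ± 0.48 (1.74-fold higher in induced cells, adjusted p = 0.0035, limma). The region at 4796991 to 4799691 gave 0.029, 0.56, 0.989 and 0.535, with a mean of 0.53 ± 0.39 (adjusted p = 0.011, limma). At 5365004 to 5367704 array 1 was near 0, at -0.024, and the others gave 0.349, 1.21 and 0.564, with a mean of 0.525 ± 0.518 (adjusted p = 0.026, limma). The call of each of the last 2 was lost without array 2 or without array 4. The lowest member region of all lay at 5755940 to 5758640, with -0.849, -0.784, -0.19 and -0.69 and a mean of -0.63 ± 0.30 (adjusted p = 0.0025, limma). The second lowest region of cluster 1, at 5320830 to 5323530, gave -0.538, -0.203, -0.376 and -0.288, with a mean of -0.35 ± 0.14 (adjusted p = 0.0084, limma). Both were below 0 in all 4 arrays.

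In cluster 2, next to the centromere, the region at 48282150 to 48284850 had the highest ratio of all members, with 0.64, 0.601, 2.41 and 1.29 in arrays 1 to 4 and a mean of 1.24 ± 0.84 (2.36-fold, adjusted p = 0.0042, limma). It ranked 4 among 18008 regions, and first among the 17299 that had 5 or more single-match probes when only those were used. All its 19 probes are single-match, and their mean probe length of 52.1 bases is among the shorter ones of the members. The signal covered the whole region and had no single peak. Of the 19 probes, 17 were above 0 in all 4 arrays, and array 3 was above 0 at all 19. Probe means ran from 0.118 to 1.66. Arrays 1 and 2 lay below arrays 3 and 4. Without array 3 the mean was 0.845, and the call held without each array in turn.

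**Figure D4:**
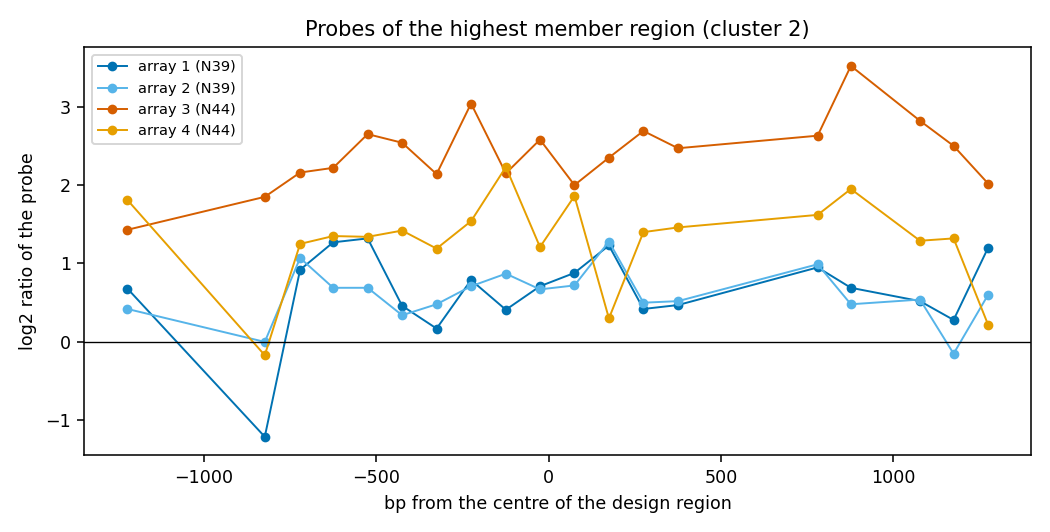
Log2 ratio of each of the 19 probes of the highest member region (vertical axis) against distance in bp from the centre of that region, in each array. Array 3 is above 0 at all 19 probes and lies highest at most of them, and arrays 1 and 2 run close to each other.

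The second highest region of cluster 2, at 48221031 to 48223731, gave 0.031, 0.67, 0.398 and 0.63, with a mean of 0.43 ± 0.29 (adjusted p = 0.012, limma), and lost its call without array 2 or 4. The other 8 regions did not pass the test. Among them the region at 49928350 to 49931050 had a mean of 0.349 ± 0.463 with 7 single-match probes of 24. The lowest means of the cluster were -0.076 ± 0.277 at 49186298 to 49188998 and 0.07 ± 0.37 at 49960113 to 49962813. The last 2 overlapped 0 and changed direction with the arrays or probes used.

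In cluster 3 the highest region, at 55407831 to 55410531, had no single-match probe among its 24. If the count field gives genomic matches, its ratio cannot be assigned to this place alone. The region gave 0.185, 0.781, 0.952 and 0.62, with a mean of 0.635 ± 0.329 (adjusted p = 0.0029, limma). The next 2 regions did not pass the test. Both were highest in array 3, with array 4 next and arrays 1 and 2 near 0. The region at 55897475 to 55900175 gave -0.071, 0.034, 1.32 and 0.519, and that at 55626894 to 55629594 gave -0.071, -0.024, 1.28 and 0.397. With its 8 single-match probes alone the second of these had a mean of -0.323. On the lower side, 55756737 to 55759437 gave -0.769, -0.62, -0.158 and -0.286, with a mean of -0.46 ± 0.28 (adjusted p = 0.0084, limma), below 0 in all 4 arrays, and lost its call without array 2. The call of 56066809 to 56069509, with a mean of -0.32 ± 0.33 (adjusted p = 0.049, limma), was lost without array 1, 2 or 4.

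In cluster 4 the highest region, at 57701292 to 57703992, gave 0.204, 0.494, 1.497 and 0.372, with a mean of 0.64 ± 0.58 (adjusted p = 0.017, limma), stood at 0.356 without array 3 and lost its call without array 2. The region at 58629085 to 58631785 was the steadiest of the named higher ones, with 0.427, 0.625, 0.252 and 0.351 and a mean of 0.41 ± 0.16 (adjusted p = 0.0045, limma). It had 12 single-match probes of 26, whose values were 0.196, 0.348, 0.088 and 0.244. It was also the named region in which arrays 1 and 2 lay above arrays 3 and 4. The region at 57882618 to 57885318 had a mean of 0.41 ± 0.41 (adjusted p = 0.032, limma) and lost its call without array 2, 3 or 4. The lowest regions of the cluster, at 58368333 to 58371033 (-0.18 ± 0.23) and 57791808 to 57794508 (-0.17 ± 0.35), did not pass the test.

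In cluster 5 no region was called higher with all 4 arrays, and 4 of 24 were called lower (16.7%, against 13.5% of all regions). The highest means were 0.32 ± 0.41 at 123389291 to 123391991, 0.20 ± 0.34 at 123942974 to 123945674 and 0.19 ± 0.33 at 123403339 to 123406039, each with array 1 below 0 and the other 3 arrays above it. The lowest regions shared a mean of -0.431. At 123414418 to 123417118 the arrays gave -0.704, -0.392, -0.252 and -0.374 (SD 0.193, adjusted p = 0.005, limma), all below 0. At 123637732 to 123640432 they gave -0.774, -0.656, 0.1 and -0.394 (SD 0.388, adjusted p = 0.024, limma), and the call was lost without array 1, 2 or 4.

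Within the regions, the ends averaged higher than the centre in all 4 arrays in clusters 1, 3, 4 and 5, and not in cluster 2. Each 2700 bp region was divided into 5 segments of 540 bp, and the first and last segments were compared with the middle 3. This comparison was chosen after the profile had been seen. Over the member regions the segments averaged 0.204, -0.004, -0.043, -0.101 and 0.236 from first to last, while over all other regions they stayed between -0.003 and 0.031. The ends minus centre difference of the members was 0.233, 0.323, 0.319 and 0.189 in arrays 1 to 4, with a mean of 0.266 ± 0.066 (SD, n = 4). In the rest of chromosome 11 it was -0.041, 0.033, -0.030 and -0.027. The members exceeded the rest of the chromosome by 0.283 ± 0.054, above 0 in all 4 arrays, at the smallest attainable p of 0.125 (exact sign-flip test). Unlike the level of the whole region, this difference within regions had the same direction and a similar size in the N39 and N44 arrays.

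**Figure D5:**
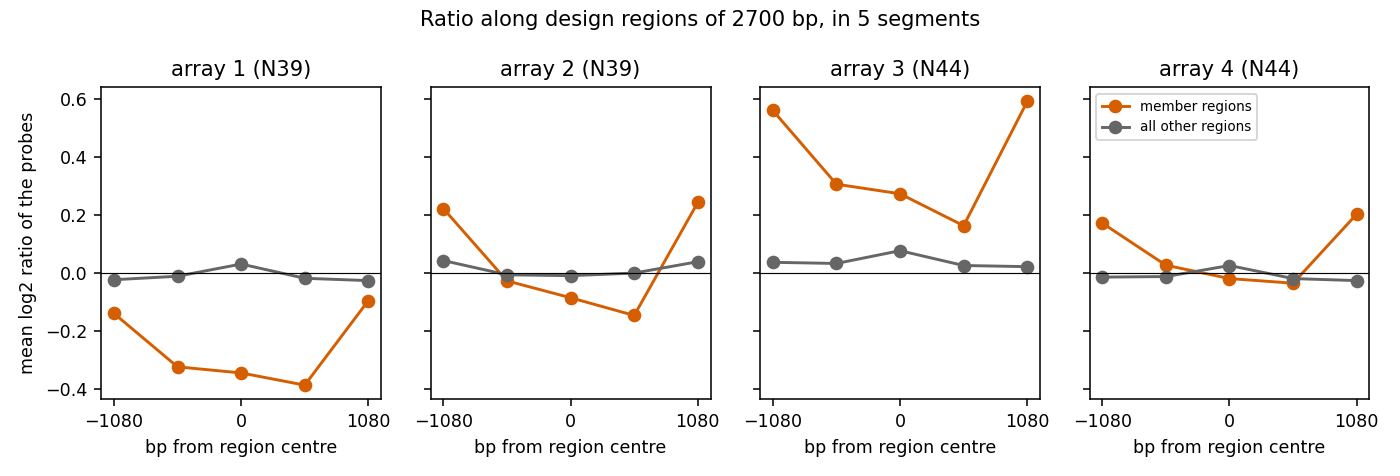
Mean log2 ratio of the probes in 5 segments of the 2700 bp regions against distance in bp from the region centre, for member regions (orange) and all other regions (grey), in each array. The first and last orange points lie above the 3 middle ones in every array, and the grey line stays near 0.

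Tested region by region across all 15838 regions with at least 3 probes in each part, 74 of 168 members (44%) had higher ends and 10 (6.0%) lower ends (limma, adjusted p threshold 0.05). Over the array 17.0% had higher and 17.6% lower ends. Cluster 3 had 27 higher and 1 lower of 45, cluster 1 25 and 5 of 63, cluster 5 11 and 1 of 24 and cluster 4 9 and 1 of 26. Cluster 2 stood apart in value, with 2 and 2 of 10 and a mean difference of -0.006 ± 0.145. With single-match probes its difference was -0.223, -0.212, -0.019 and -0.348 (-0.201 ± 0.136), with no region called higher and 2 called lower of 7. The largest difference was at 123129936 to 123132636 in cluster 5, with 1.19, 1.25, 0.974 and 0.931 (1.09 ± 0.16, adjusted p = 1.9e-06, limma) in a region whose own mean was -0.313. At 55093979 to 55096679 in cluster 3 it was 1.06 ± 0.11, while the region's own mean was 0.04. These regions were named after their values were seen.

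Probe length and probe matches moved with this pattern too. Member probes averaged 53.9, 55.6, 55.98, 56.2 and 53.7 bases in segments 1 to 5, and 13.3, 8.6, 9.45, 8.06 and 14.9% of them matched several places. With single-match probes 64 of 161 members had higher ends and 14 lower, against 16.3 and 17.5% of all regions. After the mean of each probe length was subtracted the counts were 72 and 10 of 168, against 17.2 and 18.8%. Other regions with long probes had the same direction at a smaller size. In the class of regions near 56 bases the ends minus centre difference was 0.085 ± 0.020 over 617 other regions and 0.414 ± 0.113 over 44 members. In the class near 52 bases, the shortest that members occupy, the members went the other way, with -0.101, -0.159, -0.063 and -0.256 (-0.145 ± 0.084) over 11 regions, of which none had higher and 5 had lower ends. In the classes near 53, 54, 55, 57 and 58 bases the members' difference was 0.147, 0.170, 0.279, 0.405 and 0.215. Regions were also classed by mean probe length at the ends minus that at the centre. From -6 to -1 bases the members gave 0.341, 0.368, 0.309, 0.366, 0.280 and 0.224. At 0 they gave 0.162 over 23 regions, at 1 0.066 over 6 and at 2 or more 0.040 over 7. Array 1 was below 0 in the last 2 classes, at -0.023 and -0.067. The part of probe length was not tested. Leaving out each array left 60 to 66 members with higher ends.

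The regions were also divided into 500 bp bins, about the length of the sheared chromatin, with at least 3 probes. Of 759 member bins, 174 (22.9%) passed the limma test as higher and 141 (18.6%) as lower, against 17.0 and 16.4% of the 77324 bins of the array. Without array 2 the counts were 108 and 90, and without array 1 the lower count was 78. The shares over all bins with an array left out are not given here. A higher and a lower bin occurred in the same region in 50 of 171 members (29.2%), against 18.4% of all regions. Of all member bins 40.8% lay in the end segments, against 55.7% of the higher and 27% of the lower ones. Of the bins named here 5 of 6 higher and 2 of 4 lower ones did. The highest, at 5732548 to 5732799, gave 0.89, 1.29, 2.49 and 1.08 over 3 single-match probes (1.44 ± 0.72, 2.70-fold, adjusted p = 0.00041, limma), in a region with a mean of 0.24. The bin at 4826514 to 4826963 gave 1.37 ± 0.45 and that at 5109948 to 5110397 gave 1.19 ± 0.81, both at the first end of their regions. The bin at 48283250 to 48283699, in the highest region of cluster 2, gave 1.38 ± 0.75 and was the named higher bin in the middle of its region. The bins at 55646424 (1.29 ± 0.93) and 55629105 (1.26 ± 0.98) in cluster 3 held probes that match several places. Array 3 gave the highest value in all 6.

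The lower bins varied less between arrays. The lowest, at 5756440 to 5756901 in cluster 1, gave -1.42, -1.57, -0.95 and -0.998 (-1.23 ± 0.31, adjusted p = 0.00015, limma). At 55698469 to 55698929 in cluster 3 the ratio was -1.13 ± 0.22, at 55757737 to 55758194 it was -1.07 ± 0.21, and at 123416419 to 123416878 in cluster 5 it was -1.05 ± 0.13. All 4 held single-match probes only and were at -0.888 or lower in every array.

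Probes with a count above 1, read as matching several places, were higher than single-match probes in 4 of the 5 clusters. Over all members the 398 multi-match probes averaged 0.378 ± 0.353 and the 3281 single-match probes 0.023 ± 0.247, a difference of 0.267, 0.376, 0.519 and 0.259 in arrays 1 to 4. The difference was largest in cluster 3, at 0.609 ± 0.161, and above 0 in all 4 arrays in clusters 1, 3, 4 and 5 (exact sign-flip p = 0.125 for each, the smallest possible). In cluster 2 it was -0.124 ± 0.170. Over all probes of the array it was 0.297 ± 0.082.

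Stretches of the clusters were tested as 1 Mb windows with at least 5 regions, in a fit over all 1380 such windows. The 10 windows that hold members took in 165 of the 171. Of these, 2 were higher and none lower (limma, adjusted p threshold 0.05), against 13.9 and 11% of all windows. From 48 to 49 Mb, 6 regions, all of cluster 2, averaged 0.014, 0.450, 0.716 and 0.468 (0.41 ± 0.29, adjusted p = 0.015, limma). Without the highest region the other 5 averaged -0.111, 0.420, 0.377 and 0.302 (0.247 ± 0.244). From 6 to 7 Mb, where 4 of the 31 regions belong to cluster 1, the mean was 0.145 ± 0.079 (adjusted p = 0.026, limma). The remaining windows of cluster 1 stood at 0.172 ± 0.206 (4 to 5 Mb) and 0.029 ± 0.260 (5 to 6 Mb). Those of cluster 3 stood at -0.009 ± 0.368 (55 to 56 Mb) and 0.047 ± 0.159 (56 to 57 Mb), and those of cluster 4 at 0.115 ± 0.143, 0.116 ± 0.138 and 0.116 ± 0.147 (57 to 60 Mb). Window means include regions that are not members. Members were 8 of 17 regions from 56 to 57 Mb, 12 of 22 from 57 to 58 Mb and 2 of 19 from 59 to 60 Mb. The window of cluster 5, from 123 to 124 Mb, stood at -0.054 ± 0.203. Both calls were lost without array 2 or without array 4.

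The globin span left out of cluster 1 held 5 regions, with no call and means from -0.046 to 0.158. Together they gave -0.256, 0.103, 0.261 and 0.131 in arrays 1 to 4, so array 1 was again the lowest and array 3 the highest. Their probes averaged 54.2 bases, close to those of cluster 1.

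The regions of a cluster kept part of their order from array to array. Over the 171 members, Pearson correlations between 2 arrays ran from 0.41 to 0.759 with a median of 0.677, and with each cluster's mean removed in each array from 0.434 to 0.719 with a median of 0.656. Over the 981 other regions of chromosome 11 the median was 0.567. The points share probes and neighbours, so these values are descriptions. Adjacent regions resembled each other little. The correlation of a region's mean with that of the next was 0.216 over 166 adjacent pairs of members. Within clusters 1 to 5 taken singly it was 0.194, -0.035, 0.105, -0.168 and 0.166, and in the rest of chromosome 11 it was 0.151. After subtraction of the median of the other regions within 1 Mb, a setting chosen after seeing the data, 27 of 168 members were higher and 22 lower (limma), against 14.3 and 12.3% of all regions.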

How the data were processed

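Anti-HA precipitates of 1 group were measured on 4 two-colour arrays. Per the file headers, NimbleScan wrote 1 ratio per probe, induced (Cy5, by the labels) over uninduced (Cy3). The deposited values are read as log2 ratios with the header's biweight mean already subtracted. The sources used here do not state the logarithm base, the software version, any background correction or the genome build, so the NCBI36 scale is that of the selection rule. Channel intensities were not used here, and the number of arrays limits the precision.

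All 386230 probes of each array were centred on the array's median and averaged per design region (at least 5 probes), per 500 bp bin (at least 3) and per 1 Mb window (at least 5 regions). Each feature was tested against 0 with limma 3.58.1 in R 4.3.3, with Benjamini-Hochberg adjustment over all features and a threshold of 0.05. Cluster values were tested over arrays with exact two-sided sign-flip tests. The fit was also run on simulated independent noise with added changes. That noise held no shifts by array or probe length, so the run does not bear on the calls here. The text names the 3 highest and 2 lowest regions of each cluster, the 6 highest and 4 lowest called bins with 1 sign in all arrays (1 per region), and each window. The rule for members uses positions only, but the members and lists were chosen with earlier results of these data known. Alternatives were other scalings, probe sets, probe length corrections, medians, limma settings, feature sizes, and fewer arrays. RefSeq windows were used for sequence only.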

Additional observations from a re-analysis of the deposited data

Results flagged for a closer look

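Of 65 values checked for 1 array far from the other 3 (Dixon's test at the 95% level, 3.2 expected by chance), 1 was beyond the limit. The difference cluster 3 minus cluster 5 was 0.283 in array 3 and between -0.023 and 0.002 in the other arrays.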

How the results depend on the processing

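No paired analysis was possible because the arrays form 1 group, and each ratio already sets an induced against an uninduced precipitate. Member regions called higher numbered 34 with each probe length's mean subtracted, 40 with array weights, 7 with a minimum change of 0.5 log2, 10 in series N39 alone and 51 in N44 alone. Those called lower numbered 14 with quantile normalization, 16 with single-match probes, 15 with probe length means subtracted, 15 with limma trend and robust moderation, 21 with length-class subtraction, 22 with neighbours subtracted, 19 with array weights, 1 with the minimum change, 36 in N39 and 4 in N44. Leaving out each array gave 8 to 46 higher and 4 to 37 lower. The share of all regions called also moved with the setting, from 6.20 to 18.3% higher and from 4.44 to 16.6% lower where it was computed. For the other settings, and for the counts of bins, windows and region ends that follow, that share is not given here. Those counts alone do not set the members apart. The member bins called higher numbered 96 and the member bins called lower 71 at 1000 bp. There were 90 higher bins in N39, 41 lower bins in N44, and 108 to 181 higher and 78 to 176 lower with an array left out. Windows called higher numbered 6 with probe length means subtracted, 5 with medians over probes, 5 with length-class subtraction, 5 with array weights, 4 at 0.5 Mb, 0 in N39 and 0 in N44, and 0 to 5 higher and 0 to 1 lower with an array left out. Regions with ends higher than centre numbered 42 in N44 alone, and those with lower ends 5 in N39, 3 in N44 and 6 to 8 with an array left out.

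Some directions turned. Cluster 3's mean was -0.006 with quantile normalization, -0.086 with single-match probes, -0.227 in N39 and -0.153 to 0.122 with an array left out. Cluster 1's mean was -0.058 in N39. Cluster 5's mean was 0.09 in N44 and -0.14 to 0.035 with an array left out. Against the rest of chromosome 11, cluster 1 was at -0.115 and cluster 4 at -0.031 in N39, and cluster 3 at 0.193 and cluster 5 at 0.051 in N44. With an array left out they ran from -0.046 to 0.15 (cluster 1), -0.203 to 0.073 (cluster 3) and -0.006 to 0.157 (cluster 4). Cluster 1 minus cluster 4 was 0.004 with single-match probes and 0.034 in N44, cluster 3 minus cluster 4 was 0.014 in N44, and cluster 3 minus cluster 5 was -0.019 in N39 and -0.012 to 0.09 with an array left out. The mean difference of each of the 6 pairs with 1 direction in all arrays kept its sign under every setting run. With fewer arrays that sign could not change, because these pairs had 1 direction in all arrays. Without its highest region, however, cluster 2 differed from cluster 4 by -0.039 in array 1. Region 49186298 was at 0.153 in N44 and -0.182 to 0.016 with an array left out. Region 49960113 was at -0.125 with single-match probes, -0.153 in N39 and -0.09 to 0.211 with an array left out. Regions 55897475, 55626894, 123942974 and 123403339 were at -0.019, -0.047, -0.043 and -0.003 in N39, 55626894 was at -0.323 with single-match probes, and 57791808 was at 0.122 in N44. The window from 5 Mb was at -0.146 in N39 and -0.073 to 0.138 with an array left out, and that from 56 Mb at -0.042 in N39. The window from 55 Mb was at 0.016 with probe length means subtracted, 0.002 with medians, 0.003 with length-class subtraction, 0.241 in N44 and -0.178 to 0.112 with an array left out. The window from 123 Mb was at 0.082 in N44 and -0.131 to 0.034 with an array left out. The 10 named bins kept direction and call under every setting in which they could be measured. They were picked as the most extreme called bins with 1 sign in all arrays. Their direction with fewer arrays was therefore fixed by that choice. Except where features or arrays were fewer, the cause was not tested. What signal over background limits is unknown here.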
